A study of Mus musculus with 24 samples.

Results

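Cdkn1a encodes p21, an inhibitor of the cyclin-dependent kinases that drive cells into S phase. It was followed as a single transcript, ENSMUST00000119901.8, which is 1 row of the 21960 in the count table. The row was chosen by its footprint and RNA levels, which were high in Rps6 het, Trp53 WT limbs, so its levels there are a description and carry no test. The name Cdkn1a was given for this ID from outside the table, which lists IDs only, and could not be checked in the files used here.

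From forelimbs of E10.5 mouse embryos, libraries were made of ribosome-protected fragments (RPF, also called footprints) and of RNA depleted of ribosomal RNA. All embryos carried 1 floxed Rps6 allele. The controls, called Rps6 WT, Trp53 WT, were Rps6lox/+;Trp53+/+ without Cre. Rps6 het, Trp53 WT embryos were Prx1Cre;Rps6lox/+;Trp53+/+, Rps6 WT, Trp53 null embryos were Rps6lox/+;Trp53-/-, and Rps6 het, Trp53 null embryos were Prx1Cre;Rps6lox/+;Trp53-/-. The product of Rps6 is part of the small ribosomal subunit, and Prx1Cre drives Cre in limb mesenchyme, so ectoderm, vessels and blood in the sampled limbs are outside its main domain. The Trp53 null genotype is not tied to Cre. Prx1Cre was present in all Rps6 het embryos and in no Rps6 WT embryo, so an effect of Cre itself and that of the Rps6 deletion cannot be told apart. Each genotype had 3 pools, each made from limbs of 2 embryos, and each pool gave an RNA and an RPF library, 24 libraries in all.

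The protein p53, encoded by Trp53, is a transcription factor that is kept low by the ubiquitin ligase Mdm2. When ribosome assembly is impaired, free ribosomal proteins can bind Mdm2, p53 accumulates, and its target genes are transcribed. Cdkn1a is the classic target of this kind, and through it p53 halts the cell cycle before DNA replication. In bulk limb tissue a higher level per cell and a larger number of expressing cells cannot be told apart.

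The gene (ENSMUSG00000023067.14) lies on chromosome 17 of GRCm38.p6, at chr17:29090979-29100722 on the plus strand, per RefSeq. RefSeq places 2 start sites in it, 2790 bases apart, and the files used here do not say which of them the counted transcript uses. The 250 bases before each start are shown because p53 acts at binding sites in this gene. Capitals mark matches to the p53 consensus pair of decamers with at most 1 mismatch, to TATAA (the core of a TATA box) and to GGGCGG (a GC box), each searched on both strands.

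Upstream start, chr17:29090729-29090978: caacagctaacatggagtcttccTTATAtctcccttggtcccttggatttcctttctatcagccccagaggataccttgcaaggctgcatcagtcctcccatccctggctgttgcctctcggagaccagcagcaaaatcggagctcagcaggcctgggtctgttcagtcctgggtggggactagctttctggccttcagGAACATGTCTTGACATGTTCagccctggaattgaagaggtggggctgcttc
Downstream start, chr17:29093519-29093768: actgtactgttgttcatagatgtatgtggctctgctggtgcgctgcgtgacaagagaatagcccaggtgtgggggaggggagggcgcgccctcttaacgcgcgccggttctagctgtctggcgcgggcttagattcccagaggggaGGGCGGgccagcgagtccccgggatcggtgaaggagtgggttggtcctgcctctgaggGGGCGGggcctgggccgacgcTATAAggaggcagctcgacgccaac

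The window before the upstream start held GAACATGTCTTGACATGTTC, a match to the p53 consensus with 1 mismatch, ending 31 bases before the start at chr17:29090928-29090947. Of 32851 windows of the same length before RefSeq starts, 25 (0.0761%) held such a match. No match to the p53 consensus was found in the window before the downstream start. That window held TATAA ending 20 bases before the start and 2 copies of GGGCGG, and these patterns occurred in 22.8% and 32.7% of all windows, while the upstream window held TTATA, the reverse complement of TATAA, far from its start. These matches are descriptions of sequence and do not show binding.

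RNA libraries held 14291854 to 29104669 counts and RPF libraries 7026056 to 16835045. Among replicates of a group, the RNA library of Rps6 het, Trp53 null replicate 3 stood most apart. Its chi-square per degree of freedom was 12.2 and 17.1 against the other pools of its group, the highest of 24 pairs. This library was also the deepest, with 29104669 counts, and the chi-square was taken on raw counts, where it can rise with depth. Changes that use this pool are therefore also given without it, and its part in them beyond those values was not tested. Levels are given in CPM, which divides each count by the depth of its library, here after TMM, edgeR's correction for library composition. The Rps6 and Trp53 transcripts, p53 target genes and cell cycle genes were not looked up, because 0 of the table's IDs matched the gene tables used here. Limb, ectoderm, endothelial and blood markers were not examined for the same reason, so the labelled tissue and genotypes were not checked.

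With p53 present, Cdkn1a footprints were far higher in Rps6 het limbs than in control limbs. The 3 control pools had RPF levels of 10.8, 12.1 and 11.6 CPM, from 109 to 201 counts. The 3 Rps6 het, Trp53 WT pools had 83.7, 89.3 and 86.3 CPM, from 610 to 1113 counts. The groups lay far apart, and the ratio of their means was 7.51. The SD among pools was 3.27% of the mean in Rps6 het, Trp53 WT, close to the 3.46% that counting error alone would give, and in the controls it was 5.51% against 8.16%.

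Without p53, footprints of Cdkn1a stayed near the control level in both Rps6 genotypes. The Rps6 WT, Trp53 null pools had RPF levels of 11.7, 12 and 11.2 CPM. The Rps6 het, Trp53 null pools had 12.1, 13.3 and 15.0 CPM, with the highest value in replicate 3. The mean was thus 11.6 ± 0.374 CPM (SD, n = 3) in Rps6 WT, Trp53 null and 13.5 ± 1.42 CPM in Rps6 het, Trp53 null, and Rps6 het, Trp53 WT stood 6.42 times above the latter.

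RNA of the transcript showed the same order of magnitude of difference from far fewer counts. Control pools had RNA levels of 1.82, 1.30 and 1.94 CPM, from 41, 26 and 52 counts, and the lowest of these counts has an exact Poisson 95% interval of 17.0 to 38.1. Rps6 het, Trp53 WT pools had 19.5, 13.6 and 19.7 CPM, from 428, 258 and 403 counts. All 3 lay far above the controls, with a ratio of means of 10.4, and replicate 2 was the lowest in RNA although it was the highest in footprints.

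In Trp53 null limbs RNA was low again. Rps6 WT, Trp53 null pools had RNA levels of 2.00, 2.49 and 1.75 CPM, and Rps6 het, Trp53 null pools had 1.89, 2.44 and 1.18 CPM. The 9 pools other than Rps6 het, Trp53 WT overlapped between genotypes, between 1.18 and 2.49 CPM. Between these pools RNA counts were 26 to 52, and counting error alone would give an SD of 15.4% to 16.7% of the group mean, against 18.2% to 34.3% measured. In Rps6 het, Trp53 WT the measured SD was 19.8%, against 5.25% from counting.

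**Figure D1:**
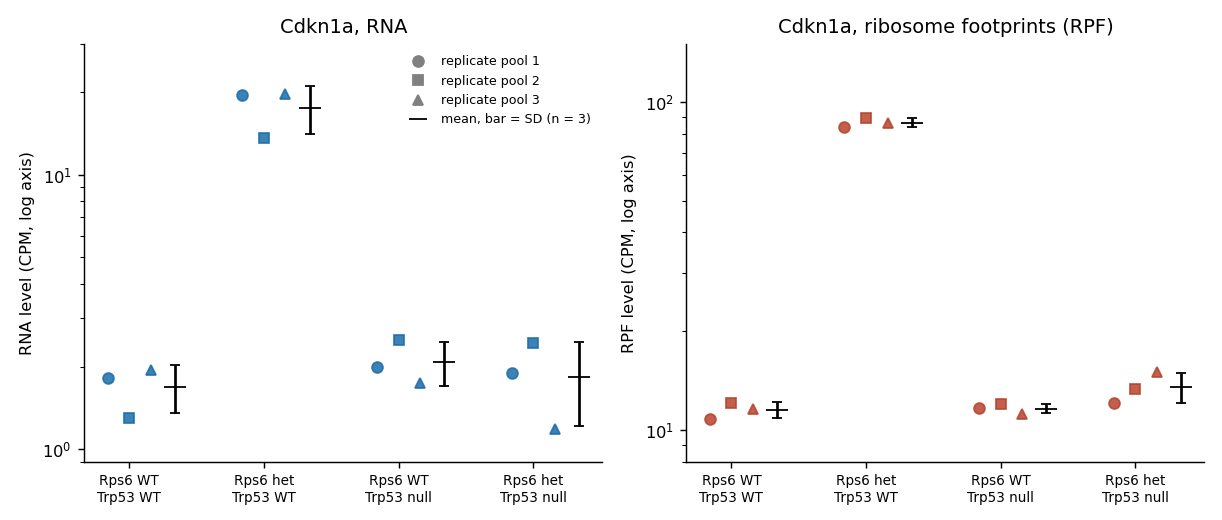
RNA level (left) and RPF level (right) of Cdkn1a in CPM on log axes, by genotype. Symbols are the 3 replicate pools, and the bar beside them is the mean with its SD (n = 3). The Rps6 het, Trp53 WT pools lie between 13.6 and 19.7 CPM in RNA, and between 83.7 and 89.3 CPM in RPF, above all other pools.

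The order of the genotype means was not the same in the 2 kinds of library. In RPF it ran from Rps6 het, Trp53 WT (86.4 CPM) through Rps6 het, Trp53 null (13.5 CPM) and Rps6 WT, Trp53 null (11.6 CPM) to Rps6 WT, Trp53 WT (11.5 CPM). In RNA Rps6 het, Trp53 WT (17.6 ± 3.49 CPM) was followed by Rps6 WT, Trp53 null (2.08 ± 0.379 CPM), Rps6 het, Trp53 null (1.84 ± 0.629 CPM) and Rps6 WT, Trp53 WT (1.69 ± 0.34 CPM). In RNA the last 3 overlapped pool by pool, and in RPF the last 2 did.

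Changes were fitted over the whole table with edgeR's quasi-likelihood test, and the place of Cdkn1a among all rows was read from that fit. In Trp53 WT the log2 change of Rps6 het against Rps6 WT was 2.91 ± 0.07 (SE) in RPF, where Cdkn1a was number 7 from the top of 12147 rows by fold and number 1 by the F statistic. In RNA the log2 change was 3.36 ± 0.20 (SE), number 8 from the top of 14411 rows by fold and number 27 by F. By fold the row thus had nearly the same place in both, and its place by F was lower in RNA. Both kinds of rank use the libraries for which the row was taken, so they are descriptions and not a test.

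Rows ahead of Cdkn1a by fold were mostly rows with fewer control counts. All 6 rows ahead of it in RPF had fewer control counts, at 0 to 91.7 per library against 150 for Cdkn1a, and their log2 changes ran from 2.93 to 8.20. Of the 7 rows ahead in RNA, 6 had fewer control counts. The share of all rows with fewer control counts than Cdkn1a is not given here, so these counts are a description. In Rps6 het, Trp53 WT, all 6 rows ahead in RPF had fewer counts than Cdkn1a, but only 4 of the 7 in RNA. Of the 7 rows ahead in RNA, 4 were tested in RPF, where all 4 were ahead of Cdkn1a as well. Just behind Cdkn1a stood a different row in each kind of library, with a log2 change of 2.83 in RPF and 3.19 in RNA. The row just behind it in RNA was ahead of it in RPF, at 3.06.

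Pools of Rps6 het and control did not overlap for Cdkn1a in either kind of library. The same was so, counting both directions as in all such shares here, for 41.5% of all rows in RNA and 37.7% in RPF. The 99th percentile of the log2 changes of all rows was 0.95 in RNA and 0.83 in RPF.

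Within Rps6 het limbs, the log2 change of Cdkn1a in Trp53 null against Trp53 WT was −2.68 ± 0.07 (SE) in RPF and −3.32 ± 0.20 (SE) in RNA. This was number 12 from the bottom of all rows in RPF and number 8 from the bottom in RNA. Without replicate 3 of Rps6 het, Trp53 null it was −2.77 in RPF and −3.04 in RNA. Pools did not overlap, as for 30.8% of all rows in RPF and 29.9% in RNA. This contrast uses the same Rps6 het, Trp53 WT libraries as the preceding one, so the 2 are not separate evidence.

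The log2 change of Rps6 het in Trp53 WT exceeded that in Trp53 null by 2.70 ± 0.12 (SE) in RPF, number 11 of the 12147 rows, and by 3.59 ± 0.36 (SE) in RNA, number 8 of 14411, and without the same pool by 2.79 and 3.31. Like the levels, these differences belong to the pattern for which the row was taken and are given without a test.

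Comparisons between genotypes other than Rps6 het, Trp53 WT were tested. The libraries of that genotype still entered the fits, through the row filter, the normalization and the shared estimate of spread. The p-values were adjusted over all rows by the Benjamini-Hochberg method, and a row is said to be called at an adjusted p under 0.05. The first comparison asked whether Cdkn1a responded to Rps6 in limbs without p53. In RPF the log2 change was 0.20 ± 0.10 (SE), a fold of 1.15 with a 95% interval of 1.01 to 1.32, and was not called (edgeR adjusted p = 0.391, unadjusted p = 0.0412). Without replicate 3 of Rps6 het, Trp53 null it was 0.12 (edgeR adjusted p = 0.746, against 0.266 to 0.746 over all alternatives). All 3 Rps6 het pools were above all 3 Rps6 WT pools, by a narrow margin from 12 to 12.1 CPM. Of all rows, 16.6% had pools that did not overlap, in either direction, while 0.906% were called.

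In RNA the change of Cdkn1a for Rps6 in Trp53 null was −0.22 ± 0.28 (SE) on the log2 scale and was not called (edgeR adjusted p = 0.802). Of all rows, 0.0694% were called. The pools overlapped, and the 95% interval of the fold ran from 0.567 to 1.29. Without replicate 3 of Rps6 het, Trp53 null the change was 0.05.

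A second comparison asked whether the low level of Cdkn1a in control limbs depends on p53. With Rps6 intact, Trp53 null differed from Trp53 WT by 0.02 ± 0.10 (SE) on the log2 scale in RPF (edgeR adjusted p = 1) and by 0.27 ± 0.28 (SE) in RNA (edgeR adjusted p = 0.681). Neither was called, and pools overlapped in both. The RNA difference was 0.13 without control replicate 2 and 0.14 without replicate 2 of Rps6 WT, Trp53 null. The 95% interval of the fold was 0.885 to 1.16 in RPF and 0.793 to 1.83 in RNA, so a fall of the footprints to below 0.885 of the control level on loss of p53 lies outside the interval. Of all rows, 0.0741% were called in RPF and 0.118% in RNA.

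The last comparison set limbs with both alterations against the controls. Rps6 het, Trp53 null was higher than Rps6 WT, Trp53 WT by 0.22 ± 0.09 (SE) on the log2 scale in RPF, a fold of 1.17 with a 95% interval of 1.02 to 1.34. This was not called (edgeR adjusted p = 0.276, unadjusted p = 0.0248), while 1.68% of all rows were. Without replicate 3 of Rps6 het, Trp53 null it was 0.14 (edgeR adjusted p = 0.63, against 0.186 to 0.63 over all alternatives). The 3 and 3 pools did not overlap, as for 17.2% of all rows, and the nearest pools of the groups both round to 12.1 CPM. In RNA the difference was 0.04 ± 0.27 (SE), with overlapping pools and a 95% interval of the fold from 0.689 to 1.54 (edgeR adjusted p = 0.975), and 0.18% of all rows were called. Leaving out 1 pool at a time gave −0.18 to 0.32, the highest without replicate 3 of Rps6 het, Trp53 null and the lowest without replicate 2 of the same genotype.

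**Figure D2:**
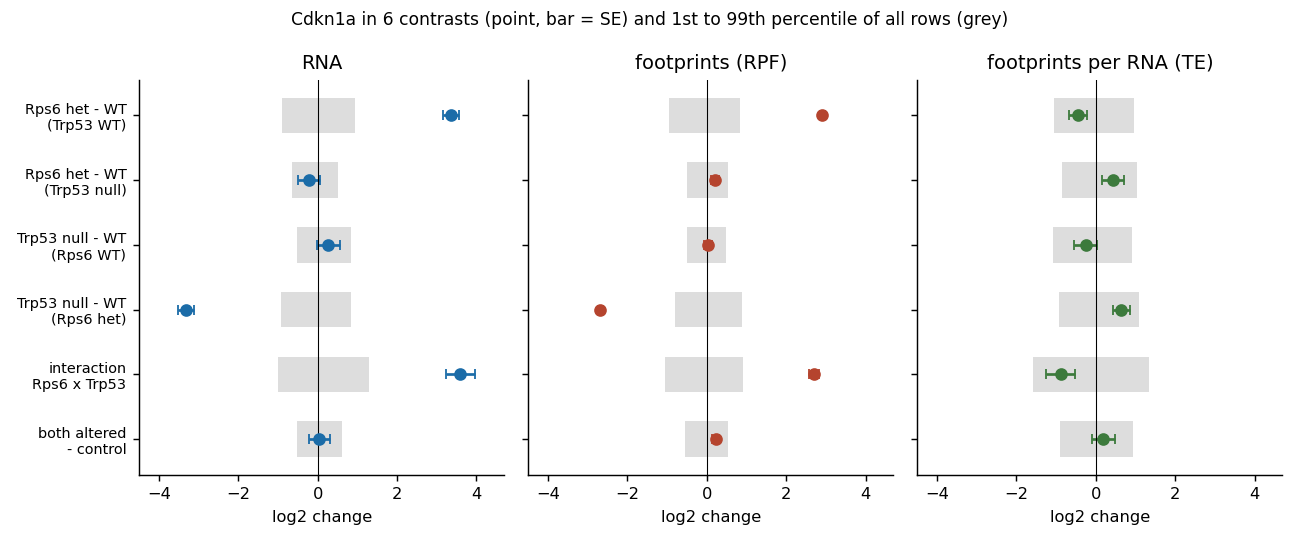
Log2 change of Cdkn1a in 6 contrasts, in RNA, in footprints (RPF) and in footprints per RNA (TE). Points carry the SE of the fit, and grey bars span the 1st to the 99th percentile of all rows tested. Cdkn1a lies outside the grey bars in RNA and RPF in the 3 contrasts that use Rps6 het, Trp53 WT limbs, and inside them in the other 3 and in all 6 contrasts of TE.

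Footprints per RNA, the translational efficiency (TE), ask whether ribosome occupancy changed beyond the RNA. For each pool the RPF level in CPM was divided by the RNA level in CPM of the library with the same genotype and replicate number. Control pools gave 5.96, 9.29 and 6, and Rps6 het, Trp53 WT pools gave 4.3, 6.58 and 4.38. The groups overlapped, and in each the highest ratio belonged to replicate 2, the pool with the lowest RNA level of its group.

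In Trp53 null limbs the ratio was 5.86, 4.80 and 6.43 in the Rps6 WT pools and 6.43, 5.45 and 12.6 in the Rps6 het pools. The value of 12.6 belongs to replicate 3, which had the lowest RNA level (1.18 CPM, 35 counts) and the highest RPF level (15.0 CPM) among Rps6 het, Trp53 null pools. All 4 genotypes overlapped with each other in this ratio. The ratio varied more between pools than footprints did, with an SD of 14.5% to 47.7% of the mean, against 3.21% to 10.6% for footprints and 18.2% to 34.3% for RNA.

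**Figure D3:**
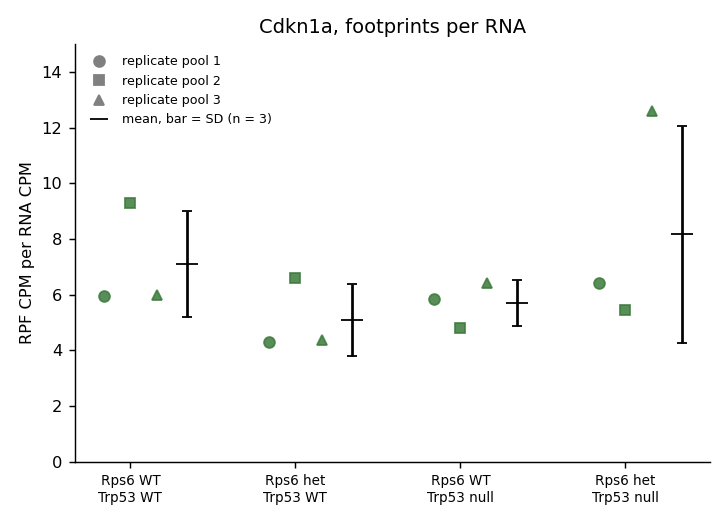
RPF CPM per RNA CPM of Cdkn1a in each pool, by genotype, on a linear axis from 0. Symbols are the 3 replicate pools, and the bar is the mean with its SD (n = 3). Most pools lie between 4.3 and 6.58, and 2 pools lie above, at 9.29 and 12.6, from 26 and 35 RNA counts. Rps6 WT, Trp53 null pools with 35 and 29 RNA counts lie at 4.80 and 6.43.

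The TE change for Rps6 in Trp53 WT was −0.45 ± 0.22 (SE) on the log2 scale, number 860 from the bottom of 14080 rows, and is a description. Without control replicate 2 it was −0.29, and without replicate 2 of Rps6 het, Trp53 WT it was −0.63. In Rps6 het limbs TE was higher in Trp53 null than in Trp53 WT by 0.64 ± 0.22 (SE), number 363 from the top. The interaction of Rps6 and Trp53 in TE was counted as the change with Trp53 minus the change without it. It was −0.89 ± 0.36 (SE), number 510 from the bottom. Without Rps6 het, Trp53 null replicate 3 the first of these changes was 0.28 and the interaction −0.52, nearer to 0. By rank, then, Cdkn1a stood much less far out in TE than in RNA or footprints.

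TE was tested in the contrasts between genotypes other than Rps6 het, Trp53 WT, whose libraries again entered the fit. For Rps6 in Trp53 null the TE change was 0.43 ± 0.28 (SE), with a 95% interval of the fold from 0.901 to 2.03, and was not called (edgeR adjusted p = 1), as 0.199% of all rows were. Without replicate 3 of Rps6 het, Trp53 null the same change was 0.07. For loss of Trp53 with Rps6 intact it was −0.25 ± 0.29 (SE), with an interval of the fold from 0.561 to 1.27 (edgeR adjusted p = 0.959), and it was −0.08 without control replicate 2 and −0.14 without replicate 2 of Rps6 WT, Trp53 null. In that comparison edgeR called 0 rows (0%), with 731 at an unadjusted p under 0.05, and DESeq2 and limma-voom called 0. For both alterations against control the TE change was 0.19 ± 0.28 (SE), with an interval from 0.765 to 1.70 (edgeR adjusted p = 1), and 0.0284% of all rows were called. Without replicate 3 of Rps6 het, Trp53 null this last change was −0.17.

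**Figure D4:**
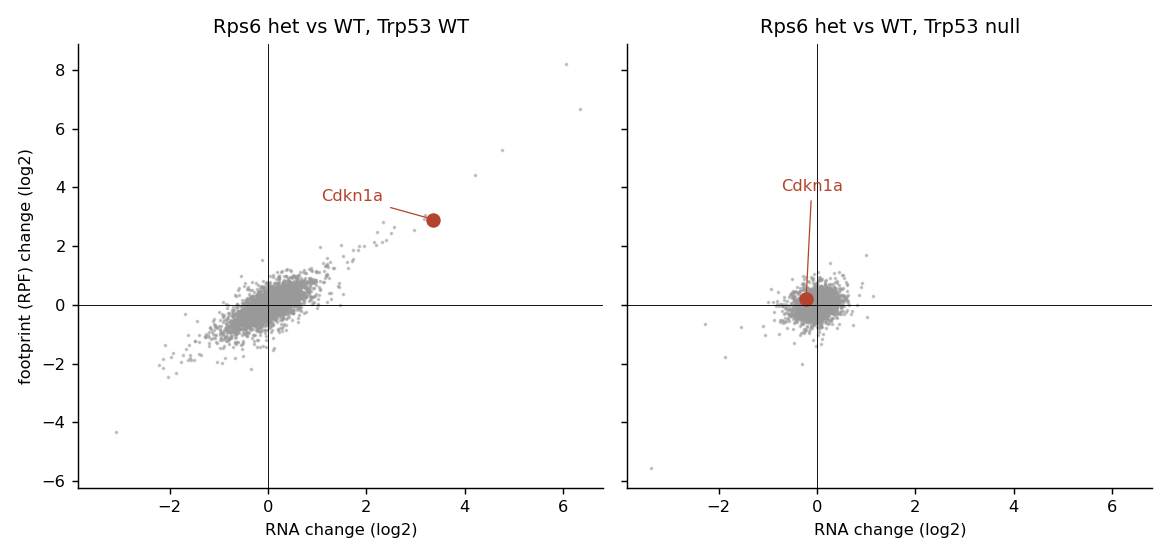
Log2 change of footprints (vertical) against log2 change of RNA (horizontal) for Rps6 het against Rps6 WT, with 1 point for each row tested in both, in Trp53 WT (left) and Trp53 null (right). Cdkn1a, in red, lies at 3.36 in RNA and 2.91 in RPF on the left, and at −0.22 and 0.20, within the cloud of rows, on the right.

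Rows with the pattern most like Cdkn1a were sought over the 12 libraries of each kind by Pearson's correlation of log2 CPM, taking for each row the lower of its RNA and RPF values. Of 12115 other rows tested in both kinds, 117 had a lower value above 0.9, against a median over all rows of −0.245. The most alike was ENSMUST00000029199.10, with r = 0.982 in RNA and 0.989 in RPF. Footprints of it stood at 7.80 ± 0.745 CPM (SD, n = 3) in controls, 42.4 ± 3.87 CPM in Rps6 het, Trp53 WT, 7.72 ± 0.48 CPM in Rps6 WT, Trp53 null and 8.62 ± 1.12 CPM in Rps6 het, Trp53 null.

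Next was ENSMUST00000037941.9, with r = 0.98 in RNA and 0.984 in RPF, although its differences were small: its RPF level went from 298 ± 8.49 CPM in controls to 421 ± 11.5 CPM in Rps6 het, Trp53 WT. The likeness is thus of shape, not of size. Over the 9 libraries of a kind other than Rps6 het, Trp53 WT, a split added after the levels were seen, r was lower. It was 0.35 in RNA and 0.22 in RPF for the first row, and 0.65 and 0.51 for the second. Cdkn1a was chosen for its high level in the 3 pools left out, so this fall is a description and not a test. Ranking by Spearman's correlation shared 0 of the 5 rows nearest by Pearson's. The libraries share pools and genotypes, so these correlations are descriptions.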

How the data were processed

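RPF and RNA libraries of 4 genotypes, 3 pools each, were analysed. The authors deposited raw counts per transcript ID, over the coding sequence for RPF and the whole transcript for RNA by the table's name. Bowtie2, UMI-tools, GRCm38 and mm10 are named in the submitters' processing notes, with no role or order. The counting tool and annotation are not given in the sources used here, so how reads shared between transcripts of a gene were assigned is unknown. UMI-tools' role is not stated either. The Poisson interval given for a count covers counting error only. Intervals of the fold were taken from the edgeR fits and their SEs, which also include the spread between pools.

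The counts were fitted with edgeR 4.0.16 in R 4.3.3 (filterByExpr with a minimum count of 10 and total of 15, TMM within library kind), RNA and RPF apart with all 4 genotypes, and TE in 1 model of 24 libraries. SEs were derived from F. Log2 CPM used a prior count of 2. The fits were tested on simulated data. Alternatives used DESeq2 1.42.0 and limma 3.58.1. The 24 pairs of replicates differed by more than sampling noise (chi-square per degree of freedom 1.78 to 17.1). Whether same-numbered pools share a litter or day is not stated. The edgeR p-values set each change against a spread between pools that was estimated over all 4 genotypes, with information shared across rows.

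The transcript and the lists were chosen with earlier results of these data known. Named rows were Cdkn1a, the 2 rows most like it, and its neighbours by fold, given without IDs. Planned lists of p53 targets, cell cycle genes and markers were not run, because no ID matched.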

Additional observations from a re-analysis of the deposited data

Results flagged for a closer look

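The log2 change of Cdkn1a for Rps6 het in Trp53 WT differed from that in Trp53 null by 3.59 in RNA and by 2.70 in RPF, and these differences between the Trp53 backgrounds are what marked them for a closer look. They include the libraries for which the row was taken, so no p is given for them. In RPF the Rps6 het pools had 86.4 ± 2.83 CPM (SD, n = 3) with Trp53 and 13.5 ± 1.42 CPM without it. In RNA it was 17.6 ± 3.49 and 1.84 ± 0.629 CPM. All 3 pools of the first genotype lay above all 3 of the second in both kinds of library. Pools of these genotypes did not overlap, in either direction, for 29.9% of all rows in RNA and 30.8% in RPF.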

How the results depend on the processing

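The 18 log2 changes of Cdkn1a were refitted 327 times, 216 of these with 1 pool left out. The 9 given as descriptions kept their sign in 162 of 162 refits, and the choice of the row fixes that sign in RNA and RPF. In TE the interaction ran from −1.11 to −0.52 and the change for Trp53 in Rps6 het from 0.28 to 0.86. The 9 tested were not called in any of 165 refits, with a lowest adjusted p of 0.186, and DESeq2 gave no adjusted p for 4 of them. Signs of small, uncalled changes turned in 8 refits. The RNA difference of Rps6 het, Trp53 null from controls, 0.04, was −0.01 with limma-voom and −0.18 to 0.32 with 1 pool left out. With 1 pool left out, the RNA change for Rps6 in Trp53 null was −0.44 to 0.05, the RPF change for Trp53 in Rps6 WT −0.02 to 0.04, and the TE difference of Rps6 het, Trp53 null from controls −0.17 to 0.41. The cause was not tested, and RNA rests on 26 to 52 counts in these pools.

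Same-numbered pools of different genotypes deviated together little over all rows, and the main fit did not pair them by number. The mean r was 0.023 to 0.058 in RNA, against −0.019 for different numbers. In RPF it was −0.013 to 0.018, against 0. With the replicate number as a block, the RPF change for Rps6 was 2.91 in Trp53 WT and 0.21 in Trp53 null (edgeR adjusted p = 0.344). That block moved the rows called for Trp53 in Rps6 WT from 17 to 47 in RNA, and left them at 9 in RPF. In RNA it raised the calls in every contrast, for Rps6 in Trp53 WT from 3580 to 4078 and for the interaction from 1376 to 2000. In TE the calls for Rps6 in Trp53 WT rose from 165 to 263. The 2 libraries of a pool, RPF and RNA, did deviate together (mean r 0.224, 0.112 to 0.384), and with the pool as a block the TE change for Rps6 was −0.45 in Trp53 WT. No call for Cdkn1a changed under either block.

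Counts of rows called elsewhere moved more. For Rps6 in Trp53 null they ran from 4 to 47 in RNA (10 in the fit reported). In RPF they ran from 60 to 285 (110), and in TE from 0 to 63 (28). The 0 in TE came from a fit of these genotypes alone and also from the fit without replicate 2 of Rps6 WT, Trp53 null. For Trp53 in Rps6 WT the counts ran from 6 to 252 in RNA (17). They ran from 4 to 48 in RPF (9) and from 0 to 12 in TE (0). For Trp53 in Rps6 WT, RNA calls were 122 without replicate 3 of Rps6 het, Trp53 null and 106 without replicate 2 of that genotype. A fit of the compared genotypes alone gave 251. The 47 RNA calls for Rps6 in Trp53 null also came without that replicate 2. For both alterations against control the counts ran from 10 to 117 in RNA (26), the 117 without replicate 3 of Rps6 het, Trp53 null. They ran from 117 to 387 in RPF (204) and from 1 to 32 in TE (4).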
